A study of Ginkgo biloba with 16 samples.

Results

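Of the 41840 gene models of the Ginkgo biloba reference genome (names starting with Gb_) in the deposited expression table, 3806 span 100 kb or more from start to end and are described here as long genes. They were chosen by the span from their coordinates, but 3 further models of that span were left out. The reason for leaving these out is not given here, so a choice by coordinates alone is not claimed. The set was also chosen with earlier results of these data known. The table holds 43911 entries in all, and the other 2071 are models without a Gb_ name. Ginkgo is a gymnosperm with a very large genome, much of it made of long terminal repeat retrotransposons, and its genes are known for long introns filled with such repeats. RNA polymerase II copies exons and introns alike, the spliceosome removes the introns, and only the joined exons remain in the mature mRNA. A gene can therefore be very long on the chromosome and have an mRNA of ordinary size.

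The libraries were made from RNA of vascular cambium, the layer of dividing cells between wood and bark, cut as frozen sections from the stems of female trees at Pizhou in Jiangsu, China. VC20 trees were 15, 20 and 22 y old, VC200 trees were 193, 211 and 236 y old, and VC600 trees were 538, 553 and 667 y old. Each library is 1 tree, so that n = 3 trees per group. The values imply between 15732414 and 18811767 counted fragments per library. VC200C stood apart, with Spearman correlations of 0.83 to 0.89 with the other 8 libraries, which correlated at 0.91 to 0.98 with each other. The 5 cambium marker genes summed to 18.2 FPKM in VC200C and to 59.4 and 139 FPKM in the other VC200 trees, against 89.0 to 193 FPKM in VC20 and 78.1 to 174 FPKM in VC600. The 3 markers of xylem wall formation summed to 0.111 to 6.82 FPKM in VC200, against 23.1 to 74.9 FPKM in VC20 and 8.43 to 41.2 FPKM in VC600. The cambium markers were WOX4 and HD-ZIP III genes and the wall markers IRX1 and IRX3 genes, all named by the study. From these same libraries it reported HD-ZIP III genes and 1 WOX4 gene as lower in old trees. It reported the same for most cell expansion genes, among which it listed IRX1 and IRX3. The marker sums are therefore no independent measure of tissue. Whether they reflect tissue make-up, and what part it would have in the results on age, was not tested. Fewer cells of a type cannot be told apart from less RNA per cell in such samples.

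The long genes had a median span of 193 kb (interquartile range, 139 to 281 kb), and the longest spanned 1389 kb. Their median gene length, the number of bases by which fragments were divided to give FPKM, was only 1593 bases. Taken gene by gene, the median of length over span was 0.770%. This length was a multiple of 3 in 78.0% of long genes and in 85.8% of all Gb_ genes, and whether it includes UTRs is not known here. By span, 2004 fell between 100 and 200 kb, 1515 between 200 and 400 kb, and 287 at 400 kb or more. They made up 9.10% of the Gb_ models and 76.0% of the bases these models span, and lay on 2663 scaffolds with 1848 on the plus strand. To compare like with like, 9563 Gb_ genes of 2 to 10 kb span were used, with a gene length between the 10th and 90th percentile of the long genes (732 to 3537.5 bases). Their median length was 1755 bases, and their median of length over span, gene by gene, was 52.3%.

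The long genes were expressed more often, and at higher levels, than genes of like length on a short span. At least 1 FPKM (fragments scaled to gene length and to the total of the library) in at least 3 libraries was reached by 3251 of the 3806 long genes (85.4%), against 5303 of the 9563 short-span genes (55.5%) and 48.7% of all Gb_ genes. These are the genes called tested below. All 9 libraries were at 1 FPKM or more for 81.5% of the long genes and for 42.8% of the short-span genes. The median of the mean level over 9 libraries was 11.1 FPKM for long genes and 1.40 FPKM for short-span genes. On the log2(FPKM + 1) scale the medians of level were 3.56 and 1.19, a difference of 2.37. Counted in each library on its own, this difference lay between 2.28 in VC600C and 2.57 in VC200A, so it was present in every tree. Among tested genes alone the medians were 14.1 FPKM in long genes and 7.90 FPKM in short-span genes, a log2 difference in level of 0.86.

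Very high levels were no more common among long genes. A mean of 100 FPKM or more was found for 108 long genes (2.84%), against 3.42% of short-span genes, and the 99th percentile was 175 FPKM in long genes and 252 FPKM in short-span genes. The quartiles were 3.69 and 25.5 FPKM for long genes and 0.0206 and 9.80 FPKM for short-span genes.

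**Figure D1:**
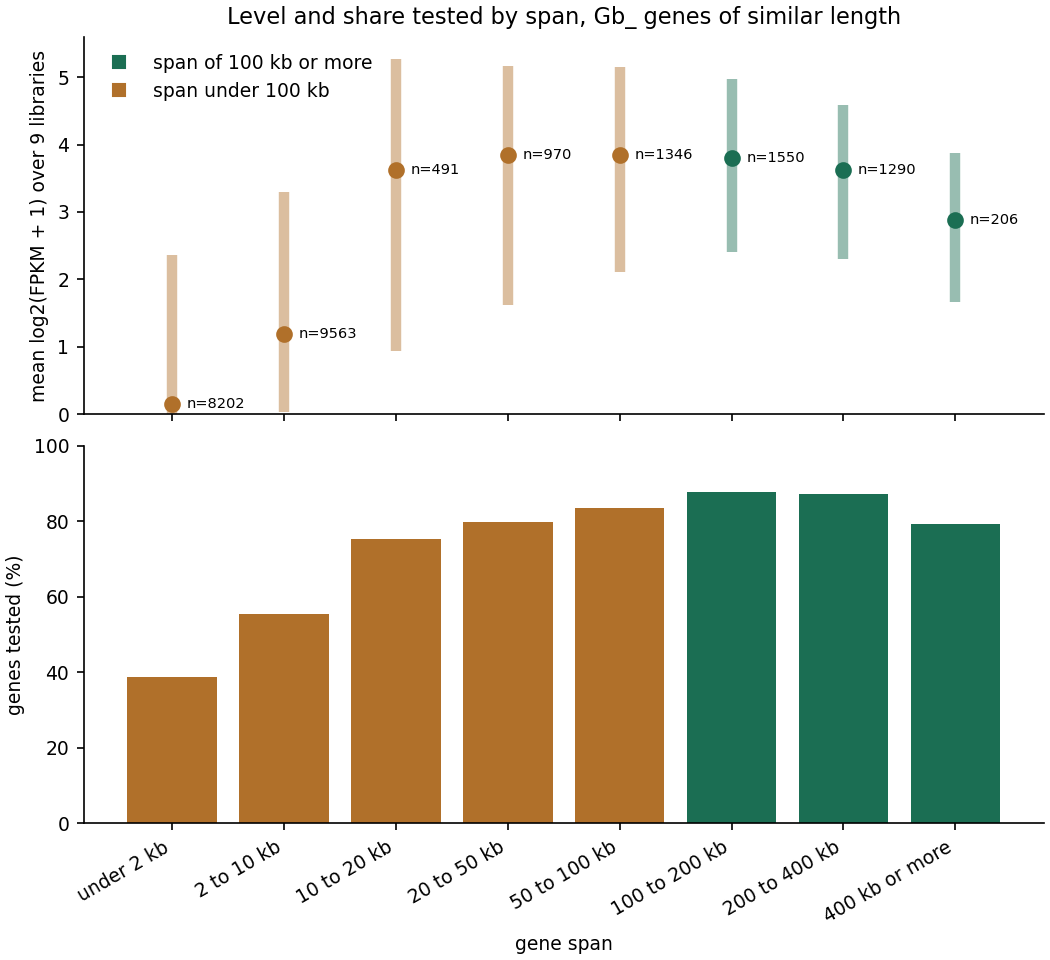
Mean log2(FPKM + 1) over 9 libraries (top; points are medians, bars interquartile ranges, n genes per class) and percentage of genes tested (bottom) for Gb_ genes of 732 to 3537.5 bases in length, by span class on the x axis. The median level is 1.19 at 2 to 10 kb, between 3.63 and 3.85 from 10 to 400 kb, and 2.88 at 400 kb or more.

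The higher level was not particular to spans of 100 kb or more. Among genes of like length, medians were 13.2 FPKM at 100 to 200 kb, 11.7 FPKM at 200 to 400 kb and 6.47 FPKM at 400 kb or more. Genes of 10 to 20 kb had a median of 11.8 FPKM, those of 20 to 50 kb 13.6 FPKM and those of 50 to 100 kb 13.7 FPKM. The step thus lay between the classes of 2 to 10 kb and 10 to 20 kb, and the level was lower again in the longest class. The tested share was 87.8%, 87.3% and 79.1% in the long classes, against 75.4%, 79.8% and 83.6% from 10 to 100 kb. Within the long genes, Spearman correlations across genes, which are no replicates, were −0.12 between span and level and −0.13 between gene length and level.

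Just inside the limit of span, Gb_33176 (100020 bases) averaged 29.9 FPKM, Gb_15765 (100035 bases) 100.2 FPKM and Gb_32477 (100046 bases) 22.9 FPKM. Just outside it, Gb_32348 (99979 bases) averaged 114 FPKM, Gb_04703 (99951 bases) 10.4 FPKM and Gb_34256 (99908 bases) 7.93 FPKM.

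The 5 long genes with the highest level were Gb_41004 (1364 FPKM, mean of 9 libraries), Gb_33605 (1174 FPKM), Gb_16865 (809.6 FPKM), Gb_00931 (619 FPKM) and Gb_20257 (521 FPKM). Gb_33605, at scaffold6543:1673673-1817858 on the plus strand, is annotated as annexin D2, a protein that binds membranes in the presence of calcium. Gb_00931 is annotated as AIG1, a protein of Arabidopsis that is induced on infection by bacteria. The other 3 carry no annotation in the sources used here. Gb_41004 had 1233, 1026 and 1050.3 FPKM in VC20, 1175, 1307 and 1700.0 FPKM in VC200 and 1580.0, 1778 and 1429.6 FPKM in VC600. All 3 VC600 trees were above all VC20 trees, while VC200 overlapped VC20, and the difference between VC600 and VC20 did not pass the test (log2 fold change, 0.53 ± 0.21 SE; limma adjusted p = 0.70).

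At the other end, 351 long genes (9.22%) were at 0 in all 9 libraries, against 15.1% of short-span genes, and 204 more were above 0 without reaching the tested level. The 5 longest were all in these classes. Gb_23709 (1389 kb), Gb_04745 (999.2 kb), Gb_21502 (981 kb) and Gb_23550 (967 kb) were listed at 0 in every library, and Gb_36303 (1053 kb) was above 0 in VC20B alone. Of the 83 long genes of 500 kb or more, 32.5% were at 0 in all libraries and 55.4% were tested.

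A group of long genes annotated as retroelements stood out among those at 0, and was picked after its values were seen. Annotation text was found for 238 long genes, those in the study's tables of age-related genes, miRNA targets and gene families, so this subset is not a random one. In 20 of them it names a retroelement polyprotein, such as the Gag-Pol protein of the yeast element Ty3, which carries the reverse transcriptase of the element. These 20 spanned 121 to 981 kb with a median gene length of 5370 bases, 18 were at 0 in all libraries, and the highest mean was 0.00261 FPKM. Of the other 218 annotated long genes, 194 were tested, with a median of 11.0 FPKM over the 218. Retroelements exist in many near-identical copies, and the treatment of fragments that match several copies was not given in the sources used here, so these 0 values cannot be told apart from uncounted fragments.

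The authors' table of predicted miRNA targets lists 295 long genes (7.75%), against 11.95% of short-span genes and 7.36% of all Gb_ genes. Among them, 28 are paired with miR845, a miRNA that in Arabidopsis matches the primer binding site of long terminal repeat retrotransposons. Their gene lengths lay between 5212 and 5614 bases, 25 were at 0 in all libraries and none reached the tested level. The 16 with an annotation were all retroelement polyproteins, and 12 had none. These 28 were likewise singled out after their values were seen. Low levels were not particular to the long models paired with miR845. Of all 135 genes paired with it, the 28 included, 63.7% were at 0 in all libraries and 5.19% were tested, with a median span of 5.5 kb. In the small RNA libraries, of 2 trees per group, vvi-miR845c had 1 read in VC20A and none in the other 5, and vvi-miR845a had none. Of the other 267 predicted targets among long genes, 85.0% were tested, with a median of 9.25 FPKM over the 267.

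Among tested long genes in the target table, the highest levels were those of Gb_00931 (miR390), Gb_05791 (an outer envelope pore protein of plastids, 183 FPKM), Gb_32864 (auxin response factor 6, paired with miR167, 136 FPKM), Gb_36844 (paired with miR156 and miR529, 126.5 FPKM), Gb_21489 (annotated by likeness to the human ubiquitin ligase RNF4, 91.9 FPKM) and Gb_41818 (paired with miR172, 70.8 FPKM). Auxin response factor 6 is a transcription factor whose pairing with miR167 is known in Arabidopsis. Gb_32864 had 126, 113 and 103 FPKM in VC20, 131, 123 and 210.2 FPKM in VC200 and 170.5, 142 and 108 FPKM in VC600. The 3 groups overlapped. Limma, edgeR and DESeq2 called 0 of these 6 genes, with an unadjusted limma p under 0.05 for 1 in VC200 against VC20 and for 1 in VC600 against VC20. Of all tested genes, limma called 0.99% in VC200 against VC20, and 20.1% had an unadjusted p under 0.05 there and 6.78% in VC600 against VC20, so that counts over 6 genes are a description only.

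Other gene models lay inside the span of long genes, and few of these reached the tested level. In 1408 long genes (37.0%) the span enclosed 1 or more other Gb_ models, 1785 in all. Every one of these 1785 lay on the opposite strand, and none was a model without a Gb_ name, of which 11 of 2071 overlapped any Gb_ span. Only 65 of the nested genes (3.64%) were tested, against 46.9% of the other Gb_ genes under 100 kb, and 57.4% were at 0 in all libraries, against 28.2% of the others. The gap was present at each gene length, with 2.92% tested against 36.2% under 500 bases and 8.21% against 60.5% from 1500 bases. Use of strand in the counting was not given in the sources used here, and its part in this difference was not tested.

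**Figure D2:**
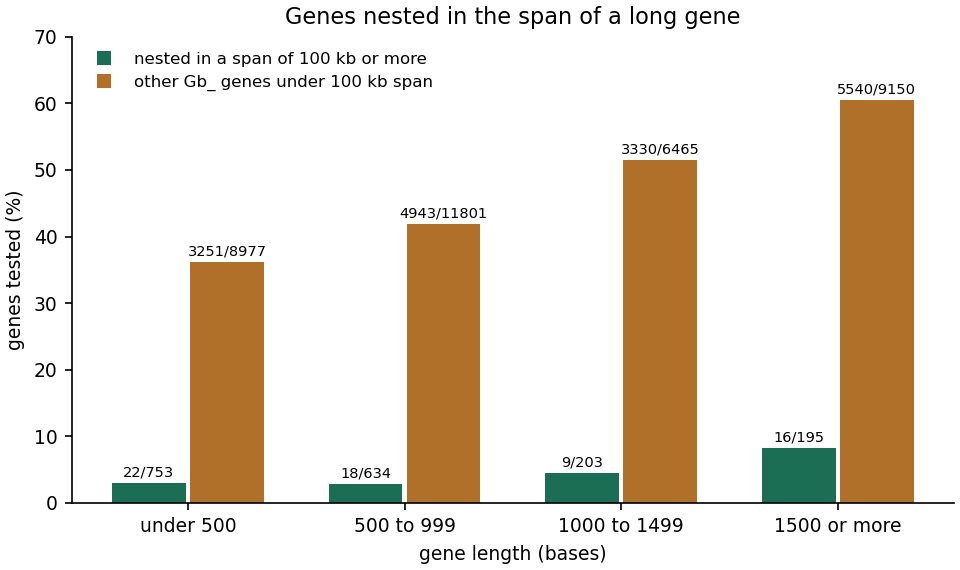
Percentage of genes tested (at least 1 FPKM in at least 3 libraries) among models nested in the span of a long gene and among other Gb_ genes under 100 kb span, by gene length; numbers above the bars are tested over all genes. Nested genes lie between 2.84% and 8.21%, the others between 36.2% and 60.5%.

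The hosts themselves were expressed. Gb_23170 enclosed 8 other models and averaged 5.002 FPKM, while the highest of the 8 averaged 0.0503 FPKM. Gb_25777 enclosed 5 and averaged 22.0 FPKM, with 0.0252 FPKM for the highest of the 5. Gb_10980 enclosed 7 at 1.40 FPKM, and Gb_18797 enclosed 6 at 0.854 FPKM. Hosts were at 0 in all libraries in 4.05% of cases, against 12.3% of long genes that enclosed no other model, and their median level was 10.5 FPKM, against 11.6 FPKM.

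Long genes also varied less between trees. The SD of log2(FPKM + 1) over the 9 libraries had a median of 0.26 in tested long genes and 0.35 in tested short-span genes. On this scale the highest library was a median of 1.73 times the lowest in long genes and 2.11 times in short-span genes, and 70.6% of long genes stayed within a 2-fold range, against 44.8%. An SD above 1 was found for 13 long genes (0.400%) and for 282 short-span genes (5.32%). Long genes had more fragments behind each value, with medians of 421 and 225 per library, so the spread was also taken at like level.

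At log2 levels under 2 the median SD was 0.29 in long genes and 0.31 in short-span genes. From 2 to 3 it was 0.28 in long genes against 0.43, from 3 to 4 it was 0.27 against 0.41, and at 6 or more it was 0.24 against 0.31. The difference was thus small in the lowest class and present in each of the classes above it. Within the age groups, the median SD over 3 trees was 0.18 in VC20, 0.26 in VC200 and 0.19 in VC600 for long genes, against 0.22, 0.32 and 0.26 for short-span genes. Without VC200C it was 0.086 in long genes and 0.13 in short-span genes over the 2 VC200 trees left.

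**Figure D3:**
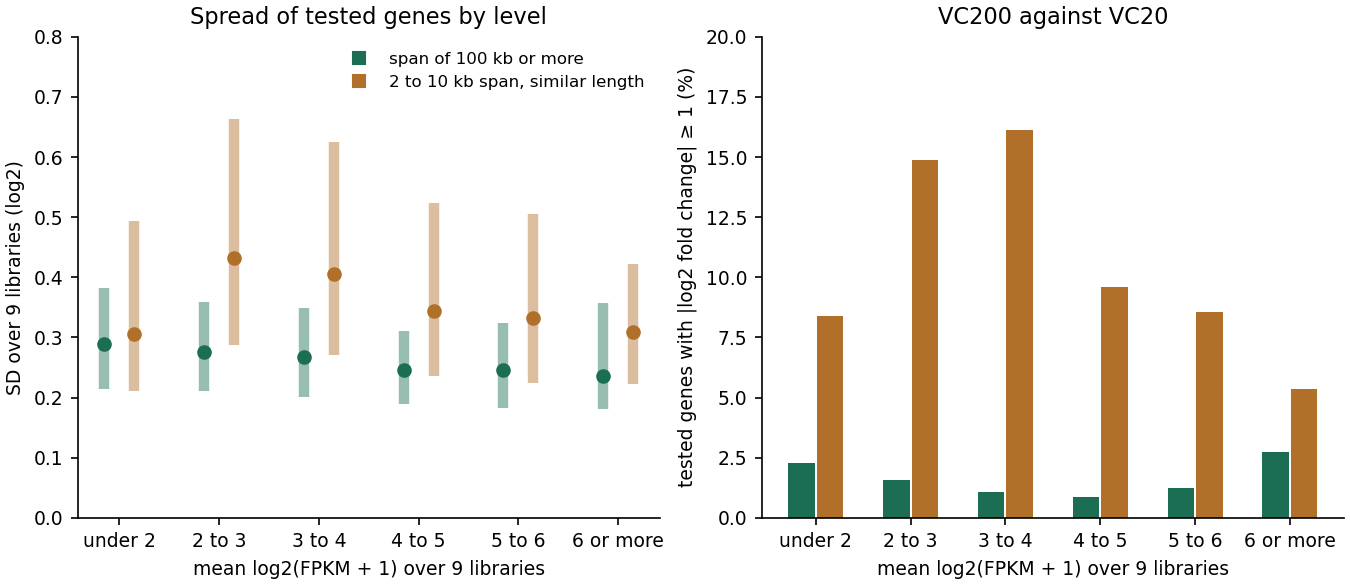
SD over 9 libraries (left; points are medians, bars interquartile ranges) and percentage of tested genes with an absolute log2 fold change of at least 1 in VC200 against VC20 (right), by mean log2(FPKM + 1). At level 3 to 4 the median SD is 0.27 in long genes and 0.41 in short-span genes, and 1.08% and 16.1% of genes reach that fold change.

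As with the level, lower spread began below 100 kb. Among tested genes of like length with a level between 3 and 5, the median SD was 0.25 in each of the 3 long classes and 0.25 at 50 to 100 kb, 0.27 at 20 to 50 kb, 0.29 at 10 to 20 kb and 0.37 at 2 to 10 kb. The share with an absolute log2 fold change of at least 1 in VC200 against VC20 was 1.23% at 100 to 200 kb, 0.979% at 200 to 400 kb and 0 of 83 genes at 400 kb or more, against 13.1% at 2 to 10 kb and 2.65% at 50 to 100 kb.

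The 5 steadiest long genes were Gb_23356 (SD 0.055, mean 93.3 FPKM), Gb_38899 (0.065, 27.9 FPKM), Gb_34931 (0.066, 11.7 FPKM), Gb_09468 (0.067, 40.1 FPKM) and Gb_21701 (0.070, 95.7 FPKM). Gb_23356 stayed between 87.2 and 98.0 FPKM over all 9 trees. The least steady were Gb_34101 (SD 2.59), Gb_07503 (2.58), Gb_22569 (2.46), Gb_28337 (2.38) and Gb_16492 (2.08). Gb_28337 had 98.6, 2.92 and 14.4 FPKM in VC20, 0.0617, 0.0645 and 9.74 FPKM in VC200 and 5.61, 8.42 and 99.3 FPKM in VC600. Its trees differed more within a group than the groups did from each other, and the same held for Gb_22569, with 111 and 107 FPKM in VC200A and VC200B against 1.03 FPKM in VC200C.

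Comparison of VC200 with VC20 asked which long genes differ between old and young cambium. Of the 3251 tested long genes, 8 were called (limma, adjusted p under 0.05 over all genes tested and an absolute log2 fold change of at least 1), 4 higher and 4 lower in VC200. That is 0.246% of them, where 0.99% of all 21924 tested genes were called, 0.283% as higher and 0.707% as lower, and 1.15% of short-span genes. An unadjusted p under 0.05 was found for 400 long genes (12.3%), against 20.1% of all tested genes, and 45 (1.38%) had an absolute log2 fold change of at least 1, against 9.75% of all. VC200 and VC20 trees did not overlap in 22.9% of long genes (218 higher and 525 lower in VC200), against 28.5% of all tested genes. The counts of calls changed with single libraries left out, for long genes as for all genes. No long gene was called without VC20A, VC20B, VC20C, VC200A or VC200B. In these fits 9, 3, 20, 0 and 21 of all 21924 tested genes were called. Without VC600B 4 long genes were called (0.123%, against 0.598% of all tested genes). Without VC200C 15 were called (0.461%, against 1.07% of all), 5 of them among the 8. With edgeR 3 long genes were called (0.0907%, against 0.214% of all genes it tested), and with DESeq2 49 (1.46%, against 4.65% of all genes it tested).

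Of the 4 called genes that rose in VC200, the largest rise was that of Gb_17592 (scaffold2686:142342-500544, minus strand). It is annotated as cinnamoyl-CoA reductase 1, an enzyme of the pathway to lignin monomers. It had 107, 88.5 and 63.2 FPKM in VC200, against 16.0, 27.9 and 25.02 FPKM in VC20, with no overlap (log2 fold change, 1.87 ± 0.25 SE; limma adjusted p = 0.029). VC600 trees had 49.2, 39.2 and 40.7 FPKM, between the other groups.

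Gb_15682 (scaffold2403:611287-824563, plus strand) is annotated as hexokinase-1, which phosphorylates glucose at the entry to glycolysis. It had 38.3, 37.0 and 39.0 FPKM in VC200, against 13.8, 11.7 and 11.2 FPKM in VC20 (log2 fold change, 1.57 ± 0.21 SE; limma adjusted p = 0.029). The VC200 trees were close together and all above VC20, and VC600 trees lay between, at 19.0, 30.04 and 33.7 FPKM.

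The annexin D2 gene Gb_33605 had 1641, 1668 and 1443 FPKM in VC200, against 746, 667 and 514 FPKM in VC20 (log2 fold change, 1.31 ± 0.20 SE; limma adjusted p = 0.034). All VC200 trees were above all VC20 trees, and so were the VC600 trees with 1184, 1259 and 1441 FPKM. Gb_16759 (scaffold2555:165374-346331, plus strand), with no annotation, was low in every tree, with 4.27, 4.68 and 4.33 FPKM in VC200, against 0.986, 1.53 and 1.26 FPKM in VC20 (log2 fold change, 1.27 ± 0.22 SE; limma adjusted p = 0.044). Its VC20 values rest on 23 to 34 fragments per library.

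**Figure D4:**
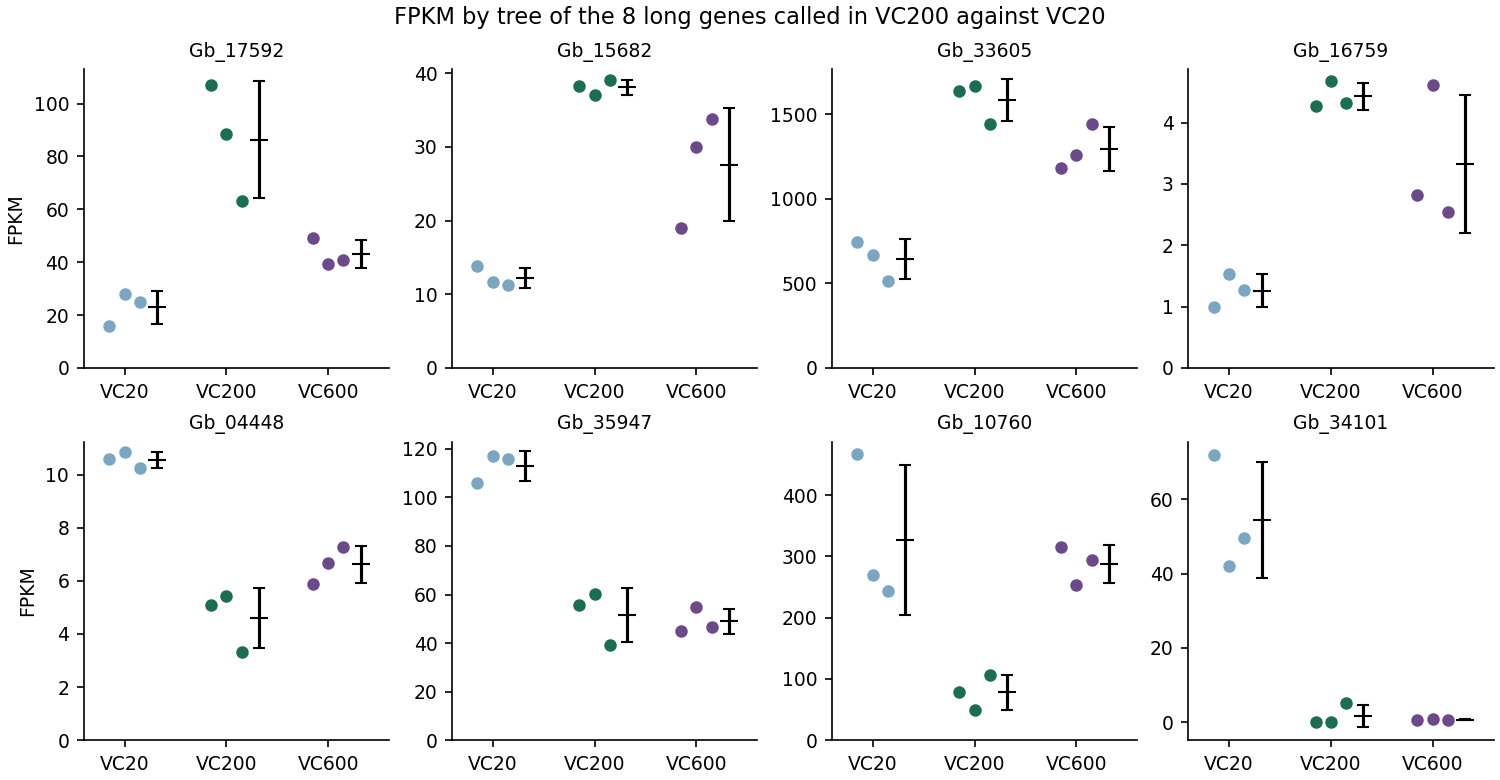
FPKM in each tree (points) of the 8 long genes called in VC200 against VC20, with mean and SD of 3 trees beside the points, for VC20, VC200 and VC600. VC200 and VC20 do not overlap in any panel, and in Gb_10760 the VC600 trees (253 to 316 FPKM) lie above the VC200 trees (49.3 to 107 FPKM).

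Of the 4 called genes that fell, Gb_34101 (scaffold6722:606343-757538, plus strand) changed most. It is annotated by its likeness to MADS22 of rice, a transcription factor of the MADS-box family. It had 0.0553, 0.0578 and 5.13 FPKM in VC200, against 71.9, 42.0 and 49.5 FPKM in VC20 (log2 fold change, −4.83 ± 0.61 SE; limma adjusted p = 0.029). VC600 trees were low too, at 0.473, 0.794 and 0.620 FPKM. The values of VC200A and VC200B are 1 fragment each, so that the size of the fall depends on the pseudocount.

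Gb_10760 (scaffold18:987687-1099965, plus strand) is annotated as apyrase 1, an enzyme that hydrolyses nucleoside triphosphates and diphosphates. It fell to 78.7, 49.3 and 107 FPKM in VC200, against 467, 269.9 and 244 FPKM in VC20 (log2 fold change, −2.06 ± 0.32 SE; limma adjusted p = 0.036). VC600 trees were at the level of VC20, with 316, 253 and 294 FPKM, and the difference between VC600 and VC200 did not pass the test (log2 fold change, 1.93 ± 0.32 SE; limma adjusted p = 0.18).

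Gb_35947 (scaffold7361:70361-216885, plus strand) is annotated as subunit alpha of the translocon-associated protein complex, which assists the passage of proteins into the endoplasmic reticulum. It had 55.5, 60.4 and 39.0 FPKM in VC200, against 106, 117 and 116 FPKM in VC20 (log2 fold change, −1.14 ± 0.18 SE; limma adjusted p = 0.037), and 45.1, 54.8 and 46.8 FPKM in VC600. Gb_04448 (scaffold12310:160913-519974, minus strand) is annotated as pectin acetylesterase 8, which removes acetyl groups from the pectin of cell walls. It had 5.10, 5.42 and 3.32 FPKM in VC200, against 10.6, 10.9 and 10.2 FPKM in VC20 (log2 fold change, −1.06 ± 0.20 SE; limma adjusted p = 0.0497). In both genes the VC200 and VC600 trees were all below the VC20 trees.

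With any 1 library left out, each of the 8 genes kept its direction, but the call was lost in at least 5 of the 9 cases. The most stable calls, held in 4 of 9 cases, were those of Gb_15682, Gb_17592 and Gb_34101, while that of Gb_04448 was lost in all 9.

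VC200 and VC20 trees did not overlap, with an absolute log2 fold change of at least 1, in 1452 of 21924 tested genes. Among 5303 tested short-span genes this held for 393, and among 3251 tested long genes for 34, the 8 called genes among them. Of those that did not pass the test, Gb_07503 and Gb_16492 were among the largest rises and falls. Gb_07503, annotated as an endochitinase, an enzyme that cleaves chitin and is part of the defence against fungi, had 101, 26.0 and 345 FPKM in VC200, against 8.31, 5.54 and 6.76 FPKM in VC20 (log2 fold change, 3.66 ± 1.28 SE; limma adjusted p = 0.17). Its VC600 trees had 1170, 30.2 and 91.8 FPKM, and trees of the older groups differed widely among themselves. Gb_16492, with no annotation, had 0, 1.36 and 0 FPKM in VC200, against 19.6, 19.5 and 20.3 FPKM in VC20 (log2 fold change, −3.97 ± 0.76 SE; limma adjusted p = 0.051), and 7.56, 0 and 0.0562 FPKM in VC600. With VC200A and VC200C listed at 0, this fold change depends on the pseudocount and was −6.35 with a pseudocount of 0.1. In the alternative fits described below, Gb_07503 was called in VC200 against VC20 in 2 of 17, among them DESeq2 (DESeq2 adjusted p = 0.012). Gb_16492 was called in 3 of 16.

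In the comparison of VC600 with VC20, 0 of the 3251 long genes were called, where 2 of all tested genes were (0.00912%). The edgeR test on recovered fragments called 0 as well (0.0% of all genes). DESeq2 called 17 long genes, or 0.507% of those it tested, against 0.695% of all genes it tested. With limma, 178 long genes (5.48%) had an unadjusted p under 0.05, against 6.78% of all tested genes, and VC600 and VC20 trees did not overlap in 17.3% (211 higher and 353 lower in VC600), against 16.1% of all. Without VC200C, which enters only through the estimate of the spread, 4 long genes were called (0.123%), all lower in VC600, against 0.0867% of all tested genes.

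Among genes whose VC600 and VC20 trees did not overlap, the largest rises after Gb_07503 were those of Gb_24961, with no annotation, and of Gb_10222, annotated as RAD51C, a protein of DNA repair by homologous recombination. Gb_10222 had 11.9, 9.53 and 9.45 FPKM in VC600, against 3.56, 3.79 and 5.92 FPKM in VC20 (log2 fold change, 1.08 ± 0.21 SE; limma adjusted p = 0.22), and its VC200 trees were also above VC20, at 9.45, 8.96 and 8.29 FPKM. The largest falls were those of Gb_34101 (log2 fold change, −5.06 ± 0.61 SE; limma adjusted p = 0.074), Gb_16492 and Gb_04801. Gb_04801, annotated as an alpha-amylase, which cleaves starch, had 12.5, 65.1 and 45.5 FPKM in VC600, against 128, 201 and 142 FPKM in VC20 (log2 fold change, −2.16 ± 0.77 SE; limma adjusted p = 0.64). DESeq2 called Gb_10222 (DESeq2 adjusted p = 0.011) and Gb_07503 (DESeq2 adjusted p = 0.0027) in VC600 against VC20. Of the alternative fits, 4 of 17 called Gb_34101, 2 of 17 Gb_10222 and 1 of 17 Gb_07503. Gb_24961, Gb_16492 and Gb_04801 were called in 0.

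In the comparison of VC600 with VC200, limma called 0 long genes, where 1 of all tested genes was called (0.00456%), and edgeR called 0, where it called 0.00446% of all genes. DESeq2 called 13, or 0.388% of long genes, against 1.42% of all genes it tested. An unadjusted p under 0.05 was found for 149 (4.58%), against 10.2% of all tested genes. The trees of the 2 groups did not overlap in 10.5% of long genes (259 higher and 83 lower in VC600), against 14.3% of all.

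Log2 fold changes of long genes in VC200 lay slightly above those of all tested genes. The median in VC200 against VC20 was −0.057 in long genes, −0.11 in short-span genes and −0.12 in all tested genes. The sign of these medians depends on the scaling, since with quantile normalization the median of all tested genes moved to 0.0040 and that of long genes to 0.055. Relative to all tested genes, the median of long genes was higher by 0.061 as deposited, by 0.051 with quantile normalization and by 0.063 with edgeR. The comparison of VC600 with VC200, which shares the VC200 trees, gave medians of 0.041 in long genes and 0.11 in all tested genes. The comparison of VC600 with VC20 gave −0.030 in long genes and −0.015 in all tested genes.

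The trees of VC200 did not agree in this. Relative to all tested genes, the median deviation of long genes was 0.11 in VC200A, 0.087 in VC200B and −0.025 in VC200C, against −0.014, 0.0049 and −0.040 in VC20. In VC600 it was −0.0054, 0.00062 and −0.073. VC200A and VC200B were thus above the other 7 trees and VC200C was among them, and without VC200C the long genes were higher than all tested genes by 0.12. The share of all recovered fragments that fell in long genes was 14.5% and 14.6% in VC200A and VC200B and 11.5% in VC200C, against 12.4% to 13.8% in VC20 and 12.9% to 13.7% in VC600. VC200C was the lowest of the 9 libraries in 44.6% of tested long genes and in 40.5% of tested short-span genes.

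**Figure D5:**
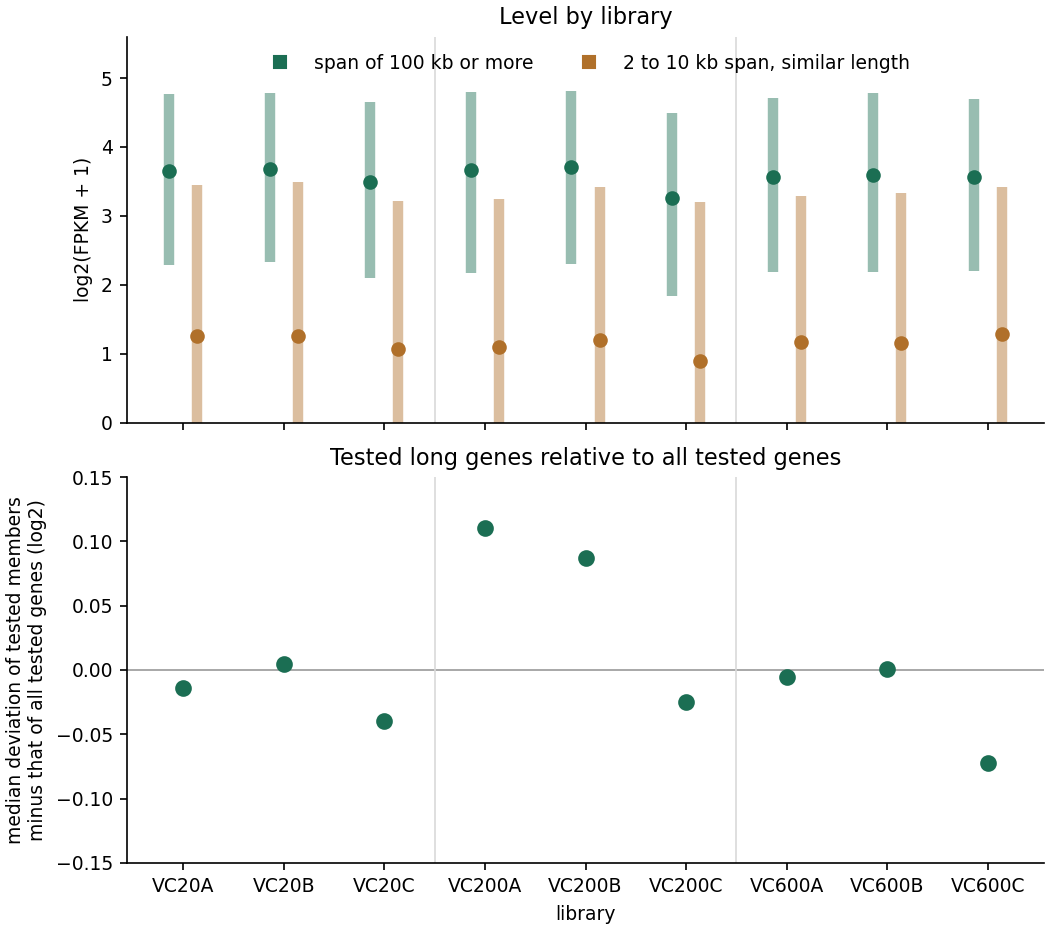
Top, log2(FPKM + 1) of long genes and of short-span genes of similar length in each library (points are medians, bars interquartile ranges). Bottom, median deviation of tested long genes from their mean over 9 libraries minus that of all tested genes, in log2; VC200A (0.11) and VC200B (0.087) lie above the other 7 libraries.

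The study listed genes of autophagy, the pathway by which cells enclose and degrade their own components, and genes with leucine-rich repeats. All 35 autophagy genes were tested, and 7 of them (20%) were long. As all 35 were tested, the like share is that among tested Gb_ genes, of which 3251 of 20381 were long. Limma, edgeR and DESeq2 called 0 of the 7 long ones in each comparison, with an unadjusted limma p under 0.05 for 1 of 7 in VC200 against VC20 and for 0 in the others. Of all tested genes, limma called 0.99% in VC200 against VC20 and 20.1% had such a p. The median log2 fold change of the 7 in VC200 against VC20 was −0.036, where that of the 35 genes was −0.056. Gb_01931 (scaffold1084:1187100-1291889, minus strand) is annotated as ATG1b, the kinase that starts autophagy. It had 18.8, 17.8 and 17.3 FPKM in VC200, against 17.1, 15.5 and 15.8 FPKM in VC20, and 16.2, 15.7 and 14.8 FPKM in VC600. All VC200 trees were above all VC20 trees, by a difference that did not pass the test (log2 fold change, 0.15 ± 0.13 SE; limma adjusted p = 0.56). VC200 and VC20 trees did not overlap in 28.5% of all tested genes. By qRT-PCR over trees of more ages, the study reported no change of this gene with age.

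Gb_14517, annotated as ATG6 or beclin 1, a subunit of the lipid kinase complex of autophagy, averaged 38.7 FPKM with an SD over 9 libraries of 0.18 in log2. Gb_28988, annotated as the activator of beclin 1, averaged 29.3 FPKM with an SD of 0.19. Of the 434 genes with leucine-rich repeats and a Gb_ name, which include many receptor kinases, 20 were long and 15 of these were tested. Limma called 0 of these 15 in each comparison, with an unadjusted limma p under 0.05 for 2 in VC200 against VC20, 2 in VC600 against VC20 and 3 in VC600 against VC200. Of the 20, edgeR called 0 and DESeq2 called 1 in each comparison. The DESeq2 call was Gb_00166 in VC200 against VC20 and in VC600 against VC200, and Gb_19706 in VC600 against VC20. Of all tested genes, 20.1%, 6.78% and 10.2% had such a p in these 3 comparisons, and DESeq2 called 4.65%, 0.695% and 1.42% of the genes it tested. The median level of the 20 was 6.34 FPKM, against 0.752 FPKM for the whole list. The most abundant were Gb_30383 (31.3 FPKM), Gb_19701 (26.5 FPKM), Gb_10821 (24.9 FPKM), annotated as the receptor kinase FEI1, which acts in cell wall synthesis in Arabidopsis, and Gb_07152 (21.1 FPKM). Neither the 202 genes listed as NBS-LRR nor the 15 listed as FLS2, counting those with a Gb_ name, held a long gene.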

How the data were processed

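The expression table, with gene positions and gene length, gives FPKM per gene and library as the authors deposited it. Reads were aligned by the authors to the Ginkgo reference with HISAT per the methods, while the submitters' processing notes name TopHat2 2.0.12 and Cufflinks 2.1.1. Counting tool, strand setting and the longest intron allowed in alignment, which bears on long genes, are not given in the sources used here. Counts of reads per miRNA and predicted target pairs were also deposited by the authors.

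FPKM times length was a whole multiple of 1 unit in 97.5% of values (tolerance 0.02), which gave fragments for edgeR and DESeq2. Log2(FPKM + 1) of genes that reached 1 FPKM in 3 or more libraries was fitted with limma 3.58.1 (R 4.3.3) over 9 libraries, with Benjamini-Hochberg adjustment over 21924 genes and calls at adjusted p under 0.05 and log2 fold change of at least 1. Alternatives were other scalings, pseudocount, filter, edgeR 4.0.16, DESeq2 1.42.0, array weights, a replicate block, other spans and lengths, and each library left out. Scripts were tested on simulated data. Each limma p-value sets a difference between groups against the spread between trees within groups. That spread was estimated over all 9 libraries of a fit, with 3 trees per group, and moderated over genes. Members, lists and alternatives were chosen with earlier results of these data known.

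Genes were named by rule: those called, the 3 largest rises and falls without overlap in VC200 and VC600 against VC20, the 5 of largest span, highest level, and highest and lowest SD, 3 on each side of the span limit, the 6 most abundant in the study's lists and in the target table, the gene named in the study's text, and the 4 enclosing most models. Annotation text came from the study's supplementary tables, as names only. No reference genome was used, so no sequence is shown.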

Additional observations from a re-analysis of the deposited data

How the results depend on the processing

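The higher level, the larger tested share and the smaller spread of long genes kept their direction under every alternative run. The difference in level was 2.47 with length bins weighted alike, 3.05 with a pseudocount of 0.1, 0.86 in tested genes and 2.23 for spans of 200 kb or more. The tested share was 88.2% at 0.1 FPKM, 72.4% at 5 FPKM and 83.8% for spans of 50 kb or more. The difference in median SD was −0.072 within groups and −0.14 with a pseudocount of 0.1, and lay between −0.095 and −0.074 with 1 library left out, the last without VC200C.

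Counts of calls were not stable, for long genes as for all genes. In VC200 against VC20, in place of 8, they were 3 with no filter (0.0868%, against 0.232% of all) and 2 with only these groups in the fit (0.0615%, against 0.292% of all). EdgeR called 3 (0.0907%, against 0.214% of all), 3 higher and 0 lower. DESeq2 called 49 (1.46%, against 4.65% of all), 30 higher and 19 lower. Array weights gave 65 (2%, against 7.49% of all), 38 higher and 27 lower. The letter as a replicate block gave 1 (0.0308%, against 0.265% of all). Leaving 1 library out gave 0 to 15 (0% to 0.461%, against 0% to 1.07% of all). In VC600 against VC20, in place of 0, only these groups in the fit gave 1 (0.0308%, against 0.00456% of all), which was the only gene called. DESeq2 gave 17 (0.507%, against 0.695% of all) and array weights 5 (0.154%, against 0.214% of all). Leaving 1 library out gave 0 to 4, the last without VC200C (0.123%, against 0.0867% of all). In VC600 against VC200 DESeq2 gave 13 (0.388%, against 1.42% of all) and array weights 25 (0.769%, against 1.75% of all). The replicate block gave 0 in both, for long genes and for all genes. Correlations of same-letter deviations lay between −0.24 and 0.28. Different-letter correlations were not taken, so these values do not settle whether the letter marks a shared batch.

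The median fold change of long genes changed sign. In VC200 against VC20 it was 0.055 with quantile normalization, 0.097 with edgeR, 0.10 with DESeq2, 0.00011 with array weights and −0.12 to 0.053 with 1 library left out, the last without VC200C. In VC600 against VC200 it was −0.054, −0.084, −0.098 and −0.042 under the same settings and −0.069 to 0.10 with 1 library left out, the first without VC200C. In VC600 against VC20 it was −0.077 to 0.0037 with 1 library left out, the last without VC20B. The cause was not tested. Relative to all tested genes, the median in VC200 against VC20 stayed positive, at 0.030 to 0.12, under the 17 alternatives. The 16 fold changes given for single genes kept their direction in all 270 alternative fits. Those of the 8 called genes lost the call in 81 fits, and the others gained one in 12. Low genes rest on few fragments.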
